A study of Homo sapiens with 6 samples.

Results

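PLIN2 encodes perilipin 2, a protein that coats lipid droplets, and it was examined together with other genes that store triglyceride, release fatty acids from it or burn them. The group has 10 genes: PLIN2, PLIN3, HILPDA, PNPLA2, ANGPTL4, CPT1A, ACADVL, HADHA, PPARD and DGAT1. They were chosen by name with the difference between exosome-treated and control cells in these same counts in view, so that difference is given for each of them as a description, without a test. Of the 10, 9 had a row among the 15761 genes of the count table and all 9 passed the filter on low counts that left 12449 genes for testing. DGAT1, one of the enzymes that make triglyceride, was not analysed here.

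The cells were SK-MES-1, a long-established human cell line from a squamous carcinoma of the lung, with genotype WT in every sample. In the exosome group (n = 3), complete medium held 20 µg/ml of the vesicles named DHLF-exo, which are exosomes (small membrane vesicles that cells release) of lung fibroblasts from the scarring disease idiopathic pulmonary fibrosis (IPF), and RNA was taken after 72 h. The control group (n = 3) was kept for the same time with no exosomes added. No group received vesicles of another source, so vesicles in general and IPF fibroblast vesicles in particular cannot be told apart. Nothing in the labels tells whether the samples of a group were grown separately, so standard errors and p-values measure the spread between these samples, which may be technical.

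A lipid droplet is a core of triglyceride and sterol esters under a single layer of phospholipid, and perilipins on its surface govern which lipases can reach the core. Fatty acids released by the lipases are joined to coenzyme A, carried into mitochondria by the carnitine shuttle and shortened by β-oxidation. Fatty acids also bind the PPAR nuclear receptors, which in many tissues switch on PLIN2, ANGPTL4, CPT1A and genes of β-oxidation. In tumour cells, PLIN2 and HILPDA are well known as genes induced by low oxygen.

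Total counts were 13038688 to 13334508 in exosome libraries and 11346639 to 12924251 in control libraries, with 14294 to 14540 genes detected in each. The libraries numbered 3 stood farthest from the others of their group: the chi-square per gene between 2 libraries was 9.34 and 7.15 for pairs with exosome library 3, against 3.11 for the other exosome pair, and 15.6 and 11.7 for pairs with control library 3, against 2.29 for the other control pair. Across the 12449 tested genes, the log2 fold change of exosome over control rose with the GC content of the transcript (Spearman correlation 0.62, across genes, which are not independent replicates) and fell with its length (−0.39). Each fitted value is therefore given beside a second one, here called corrected, from a fit with the trend on GC content and length removed. Whether the trend arose in the cells or in library preparation was not tested. Epithelial keratins were high (KRT8 averaged 1944 CPM, the read count scaled to the library total, in exosome libraries and 2340.1 CPM in control libraries), while the squamous keratins KRT5, KRT14 and KRT6A stayed under 1 CPM on average in both groups. KRT17, another squamous keratin, averaged 1.11 CPM in exosome libraries and 3.47 CPM in control libraries, the adhesion gene CDH1 20.7 CPM in exosome libraries and 51.5 CPM in control libraries, and TP63, the squamous lineage factor, 2.28 CPM in exosome libraries and 1.51 CPM in control libraries. The summed level of this list (11 of 13 in the table) was 3667 to 3988 CPM in exosome libraries and 4261 to 4477 CPM in control libraries. The summed level of fibroblast markers (8 of 12 in the table) was 50.3 to 55.9 CPM in exosome libraries and 107 to 118 CPM in control libraries. It was mainly COL1A1 (30.6 CPM with exosomes, 60.2 CPM in control) and COL1A2 (13.6 and 40.8 CPM). PDGFRB (6.72 and 7.65 CPM) and COL6A3 (1.4 and 3.3 CPM) were lower with exosomes as well. COL3A1, PDGFRA, FAP and THY1 stayed under 1 CPM on average in both groups. Of adipocyte markers, which share PLIN4 with the genes below, 4 of 8 were in the table, at 29.2 to 37.9 CPM in exosome libraries and 14.5 to 19.6 CPM in control libraries, with PLIN1 and CIDEC under 1 CPM on average in both groups. Macrophage markers (7 of 10) summed to 258.5 to 278.9 CPM in exosome libraries and 172 to 202 CPM in control libraries. The sum was mainly CD68 (194.6 CPM with exosomes, 159.4 CPM in control) and CD14 (69.9 and 23.0 CPM), while CSF1R was lower with exosomes (4.68 and 8.07 CPM). The defining leukocyte gene PTPRC averaged 0.0756 CPM in exosome libraries and 0.170 CPM in control libraries. The part of these marker genes in the results below was not tested.

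The start regions of 3 genes are shown because PLIN2 and ANGPTL4 are the droplet gene the group is named for and its member with the widest difference, and because HADHA shares its start region with its partner subunit. The sequences are RefSeq's, on GRCh38.p14, and run 5′ to 3′ on the gene's strand from 250 bases before the start to 50 bases after it. Capitals mark the letters ACGTG or GCGTG on either strand, the cores to which hypoxia-inducible factors bind. The PLIN2 window lies at chr9:19127443-19127742 (minus strand) and the ANGPTL4 window at chr19:8363905-8364204 (plus strand). The gene spans given below are from GENCODE 29 and begin elsewhere for these genes. On its strand the PLIN2 span begins at 19149290 and the ANGPTL4 span at 8363289, both outside the windows. The third stretch, at chr2:26244689-26244882 and written on the plus strand, is the 194 bases that the windows of HADHA and HADHB share.
PLIN2: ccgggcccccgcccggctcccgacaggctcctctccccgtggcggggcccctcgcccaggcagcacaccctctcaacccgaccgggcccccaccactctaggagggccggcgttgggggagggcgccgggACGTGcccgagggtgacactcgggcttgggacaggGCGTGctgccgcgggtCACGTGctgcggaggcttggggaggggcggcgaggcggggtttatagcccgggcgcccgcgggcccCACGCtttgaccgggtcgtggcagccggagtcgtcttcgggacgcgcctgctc
ANGPTL4: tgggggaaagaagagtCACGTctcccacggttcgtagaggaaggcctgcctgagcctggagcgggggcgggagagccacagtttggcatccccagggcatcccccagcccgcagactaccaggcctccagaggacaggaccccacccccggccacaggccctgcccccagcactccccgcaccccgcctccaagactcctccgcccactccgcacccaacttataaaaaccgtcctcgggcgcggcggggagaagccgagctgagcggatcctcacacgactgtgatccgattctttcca
HADHA and HADHB: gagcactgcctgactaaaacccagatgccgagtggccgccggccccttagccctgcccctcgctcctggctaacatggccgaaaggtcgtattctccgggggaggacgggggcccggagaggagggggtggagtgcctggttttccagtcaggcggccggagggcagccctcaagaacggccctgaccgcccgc

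The PLIN2 window was 76.7% GC, against a median of 58.7% over the 35116 RefSeq windows of this length. It held ACGTG 3 times, counting both strands; 2 of these are the 2 readings of 1 palindrome, CACGTG, which 7.26% of all windows hold. GCGTG stood in it 2 times. The ANGPTL4 window held ACGTG 1 time, at −234 relative to the start. The letters TATAAA stood at −29 in the ANGPTL4 window on the gene's strand and at −29 in the PLIN2 window on the other strand. Of all windows, 21.4% hold ACGTG, 36.5% GCGTG and 11.5% TATAAA. The paired site that PPARs bind, AGGTCA repeated with 1 base between, was in 0.0228% of all windows and in none of the 8 member genes that had a window (HILPDA had none). HADHA and HADHB run head to head, with RefSeq starts 307 bases apart. These matches describe letters only.

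PLIN2 had 122, 128 and 129 CPM in exosome libraries 1 to 3, against 68.4, 68.3 and 67.7 CPM in control libraries 1 to 3. Both groups were tight, and every exosome library lay far above every control library. The gene (chromosome 9, 19108375 to 19149290, minus strand, GRCh38) was 1.75-fold higher with exosomes in the edgeR fit, a log2 difference of 0.81 ± 0.078 (SE) and a corrected one of 0.68 ± 0.064. Its value stood at the 94.3rd percentile of all tested genes, with 707 genes above it. In bulk RNA of this kind, a change in the share of cells that express a gene and a change in RNA per cell cannot be told apart.

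PLIN3 encodes the perilipin that moves from the cytosol onto newly forming droplets and is made in nearly all tissues. It had 396.5, 371 and 345 CPM in exosome libraries, against 333, 325 and 369 CPM in control libraries. The groups overlapped, through control library 3. Its log2 difference was 0.03 ± 0.077, with a corrected value of −0.35 ± 0.065, and it was 0.13 without the libraries numbered 3. PLIN3 lies on chromosome 19 from 4838341 to 4867768 (minus strand), where an antisense gene, AC027319.1, overlaps it by 567 bases.

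The perilipin family was set side by side per length, in the authors' FPKM (fragments scaled to transcript length and library size). PLIN2 made up 23.0, 25.1 and 26.7% of the family's summed FPKM in exosome libraries, against 16.9, 17.3 and 15.4% in control libraries. PLIN3 made up 71.9% ± 1.68 with exosomes and 81.7% ± 1.15 in control (SD, n = 3 each). The ratio of PLIN2 to PLIN3 was 0.347 ± 0.0339 in exosome libraries and 0.202 ± 0.0145 in control libraries. PLIN5 and PLIN4, which are not among the 10 genes and could be tested, both rose. PLIN5, a perilipin of oxidative tissues that tethers droplets to mitochondria, had 9.57, 10.7 and 7.72 CPM with exosomes, against 2.44, 3.26 and 2.24 CPM in control (log2 fold change 1.74 ± 0.21, edgeR adjusted p = 1.37e-06, corrected 1.29). PLIN4, found chiefly in fat tissue, had 32.7, 28.4 and 25.8 CPM with exosomes, against 15.8, 12.3 and 14.4 CPM in control (0.94 ± 0.13, edgeR adjusted p = 4.09e-06, corrected 0.65). Neither gene's groups overlapped. PLIN5 was still a small part of the family sum, at 0.981% with exosomes and 0.347% in control. PLIN1, the perilipin of fat cells, was at 0.272 ± 0.0322 FPKM with exosomes and 0.290 ± 0.217 FPKM in control, too low to be tested.

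**Figure D1:**
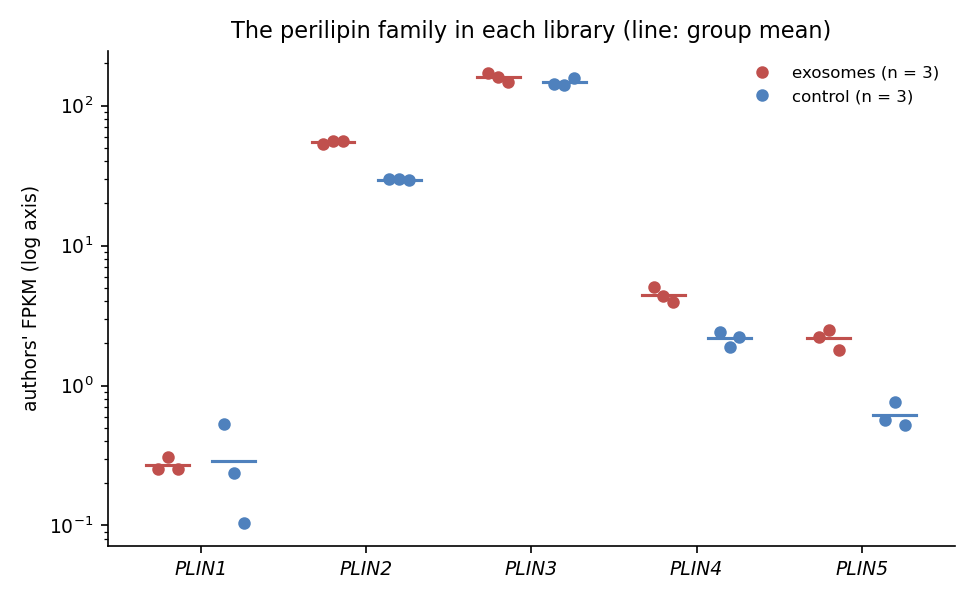
FPKM of the 5 perilipin genes on a log axis, 1 point per library and a line at the group mean, exosome libraries in red and control libraries in blue (n = 3 each). PLIN2, PLIN4 and PLIN5 lie higher in every exosome library than in any control library, PLIN3 is the most abundant and overlaps, and PLIN1 is below 1 FPKM.

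HILPDA encodes a small droplet protein that inhibits the lipase PNPLA2 and is induced by low oxygen. It had 17.1, 18.3 and 12.7 CPM in exosome libraries, against 8.96, 9.87 and 10.7 CPM in control libraries. The groups did not overlap, but exosome library 3 lay close to control library 3. The log2 difference was 0.62 ± 0.15, corrected 0.39 ± 0.14, and 0.82 without the libraries numbered 3. The gene, on chromosome 7 from 128455849 to 128458418 (plus strand), lies wholly within another annotated gene on its strand, AC010655.4, so the authors' counting may have split reads between them.

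PNPLA2 encodes adipose triglyceride lipase, which takes the first fatty acid off triglyceride. It had 100.3, 90.7 and 76.0 CPM in exosome libraries, against 57.1, 65.4 and 58.4 CPM in control libraries. Every exosome library was above every control library, with exosome library 3 the lowest of its group. The log2 difference was 0.48 ± 0.096, and the corrected one was −0.03 ± 0.072, within 1 SE of 0, for this gene of 64.5% GC. PNPLA2 lies on chromosome 11 from 818902 to 825573 (plus strand), where an antisense gene, AP006621.1, overlaps it by 1940 bases.

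The partners of PNPLA2 moved in different directions. G0S2, its protein inhibitor, rose, at 12.0, 10.7 and 8.32 CPM with exosomes, against 5.11, 6.17 and 3.48 CPM in control (log2 fold change 1.0 ± 0.20, edgeR adjusted p = 3.22e-04, corrected 0.49). ABHD5, its co-activator, fell in the uncorrected fit, at 71.8, 73.9 and 77.1 CPM with exosomes and 84.6, 80.8 and 93.4 CPM in control (−0.30 ± 0.084, edgeR adjusted p = 0.00514), but did not pass in the corrected fit (0.09, adjusted p = 0.316). MGLL, which cleaves the last fatty acid from monoglyceride, had the smallest adjusted p of its list. It had 62.3, 58.7 and 61.0 CPM with exosomes, against 123, 128 and 144 CPM in control, with no overlap, and was 2.30-fold lower with exosomes (log2 fold change −1.20 ± 0.083, edgeR adjusted p = 3.66e-10, corrected −1.42). The uncorrected FPKM ratio of PNPLA2 to MGLL was 4.92, 4.72 and 3.81 in exosome libraries, against 1.42, 1.55 and 1.24 in control libraries. In the corrected fit, PNPLA2 was at −0.03.

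ANGPTL4 encodes a secreted protein that inactivates lipoprotein lipase, the enzyme that frees fatty acids from circulating lipoproteins. It had 19.97, 16.0 and 12.4 CPM in exosome libraries, against 4.48, 5.38 and 2.17 CPM in control libraries. The groups did not overlap, and the libraries numbered 3 were the lowest of both. In read counts this was 263, 209 and 165 with exosomes and 57, 61 and 28 in control. The log2 difference was 1.93 ± 0.26, or 3.82-fold, the widest of the 9 genes, with 25 of the 12449 tested genes above it on the higher side. The corrected value was 1.39 ± 0.2. ANGPTL4 lies on chromosome 19 from 8363289 to 8374373 (plus strand).

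CPT1A encodes the liver form of carnitine palmitoyltransferase 1, the step that commits fatty acids to enter mitochondria. It had 292, 258.5 and 294 CPM in exosome libraries, against 265, 251 and 301 CPM in control libraries. The groups overlapped fully, and the log2 difference was −0.03 ± 0.083 (corrected −0.04 ± 0.064). Its muscle form CPT1B was near 0 (0.0764 CPM with exosomes, 0.103 CPM in control). The brain form CPT1C, also low, rose, at 6.99, 7.13 and 3.98 CPM with exosomes and 2.67, 2.29 and 2.17 CPM in control (1.25 ± 0.25, edgeR adjusted p = 2.91e-04, corrected 0.93). CPT2, which rebuilds the acyl-CoA inside the mitochondrion, had 45.4 ± 3.59 CPM with exosomes and 37.9 ± 3.44 CPM in control. Its log2 fold change of 0.18 did not pass (edgeR adjusted p = 0.14), while it passed in the corrected fit (0.51, adjusted p = 2.08e-04) and without control library 3 (0.25, adjusted p = 0.0447).

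ACADVL encodes very long chain acyl-CoA dehydrogenase, the first enzyme of mitochondrial β-oxidation for long chains. It had 429, 428 and 307 CPM in exosome libraries, against 175, 183 and 183 CPM in control libraries. No libraries overlapped, although exosome library 3 stood well below the other two. The log2 difference was 1.02 ± 0.1, or 2.03-fold, with a corrected value of 0.63 ± 0.073 and a value of 1.17 without the libraries numbered 3. On the higher side, 348 tested genes had a larger log2 fold change. ACADVL lies on chromosome 17 from 7217125 to 7225273 (plus strand) and overlaps DLG4 on the other strand by 2717 bases. Whether reads were counted by strand is not stated, so reads of these genes may not be separated.

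HADHA encodes the α subunit of the mitochondrial trifunctional protein, which carries out the later steps of the cycle for long chains. It had 421, 409 and 455 CPM in exosome libraries, against 389.8, 400.4 and 400.0 CPM in control libraries. The groups did not overlap in CPM, but the highest control library (400.4 CPM) lay close to the lowest exosome library (409 CPM). The fitted log2 difference was 0.03 ± 0.076 (corrected −0.04 ± 0.059). HADHB, the β subunit, is read from the shared start region shown above and overlaps HADHA by 1557 bases. It had 225, 231 and 228 CPM with exosomes, against 222, 215 and 195 CPM in control (log2 fold change 0.03 ± 0.077, edgeR adjusted p = 0.776, and −0.02 without control library 3). The FPKM ratio of HADHA to HADHB was 1.34 ± 0.0824 with exosomes and 1.34 ± 0.106 in control, whereas the ratio of ACADVL to HADHA was 1.29, 1.33 and 0.854 with exosomes and 0.568, 0.579 and 0.580 in control. HADHA lies on chromosome 2 from 26190635 to 26244726 (minus strand).

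PPARD encodes PPAR-delta, the PPAR that is expressed most widely. It had 57.6, 49.6 and 51.8 CPM in exosome libraries, against 48.5, 45.9 and 46.6 CPM in control libraries. The groups were next to each other without overlap, and the log2 difference was 0.09 ± 0.092, with a corrected value of −0.21 ± 0.077. PPARD lies on chromosome 6 from 35342558 to 35428191 (plus strand). PPARA, the receptor that drives fatty acid oxidation in liver, fell, at 28.3, 29.4 and 29.7 CPM with exosomes and 40.9, 43.4 and 42.3 CPM in control (−0.61 ± 0.096, edgeR adjusted p = 2.2e-05, corrected −0.41). PPARG, the receptor of fat cells, had 48.2 ± 1.85 CPM with exosomes and 51.9 ± 3.33 CPM in control and did not pass (−0.19, edgeR adjusted p = 0.0941), although it did without control library 3 (−0.23, adjusted p = 0.038).

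**Figure D2:**
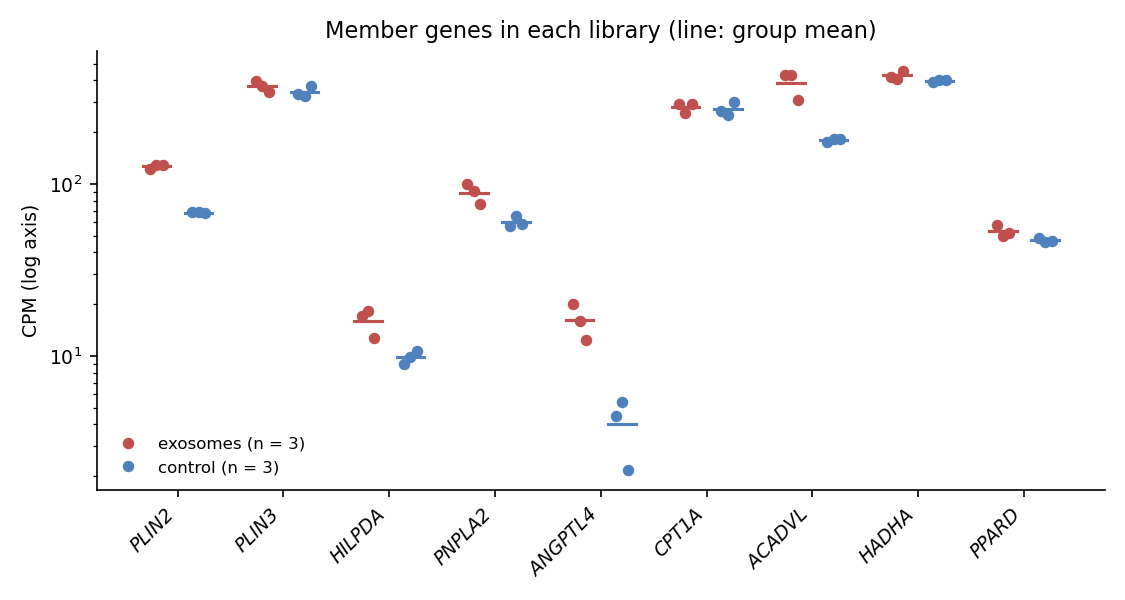
CPM of the 9 genes on a log axis, 1 point per library (replicates 1 to 3 from left to right) and a line at the group mean, exosome libraries in red and control libraries in blue (n = 3 each). ANGPTL4, ACADVL and PLIN2 show the widest gaps, PLIN3 and CPT1A overlap, and HADHA and PPARD lie side by side.

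In the uncorrected fit, 5 of the 9 genes (PLIN2, HILPDA, PNPLA2, ANGPTL4 and ACADVL) lay past an adjusted p of 0.05 on the higher side, where 25.6% of all tested genes lay, and 0 on the lower side, where 26.1% lay. In the corrected fit, 4 lay on the higher side (17.3% of all tested genes) and 2, PLIN3 and PPARD, on the lower side (17.8%). All exosome libraries were above all control libraries in CPM for 7 of the 9 (35.0% of tested genes) and below them for 0 (24.5%). These counts follow from how the genes were chosen, and nothing is read from them.

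**Figure D3:**
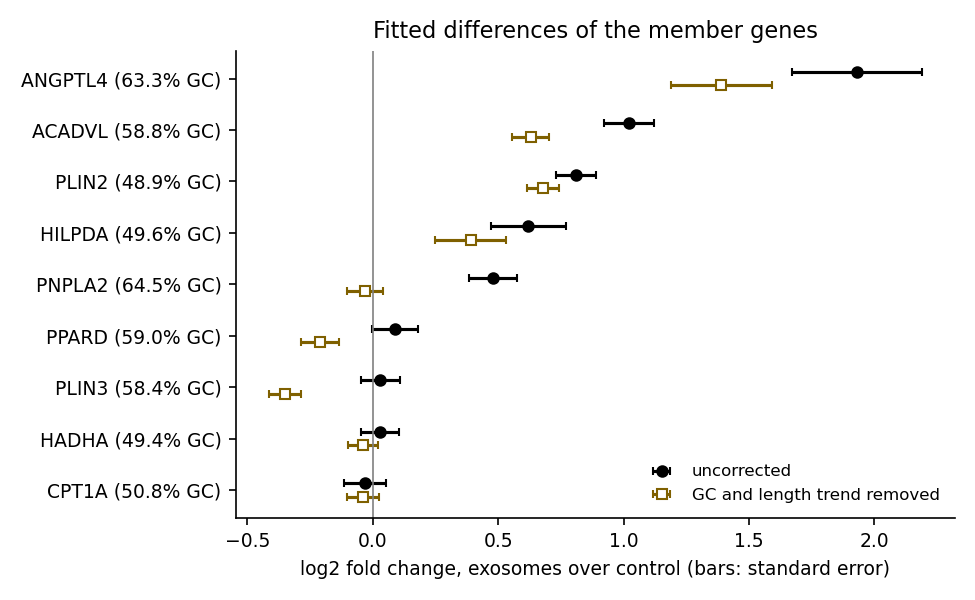
Fitted log2 fold change of exosome over control for the 9 genes, ordered by the uncorrected value, with bars of 1 standard error. Filled circles are the uncorrected fit and open squares the fit with the GC and length trend removed. The GC-rich genes ANGPTL4, ACADVL, PNPLA2, PLIN3 and PPARD shift most to the left, while PLIN2 shifts from 0.81 to 0.68.

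Per length, PLIN3 was the most abundant of the 9 genes in control cells (147 ± 10.1 FPKM), followed by HADHA (126 ± 1.91 FPKM), ACADVL (72.8 ± 1.9), CPT1A (47.1 ± 4.51), PLIN2 (29.6 ± 0.162), PNPLA2 (24.8 ± 1.83), PPARD (10.5 ± 0.301), HILPDA (7.07 ± 0.617) and ANGPTL4 (2.13 ± 0.881), with no overlap between neighbours. With exosomes the order was PLIN3 (159 ± 11.1 FPKM), ACADVL (157 ± 28.4), HADHA (136 ± 7.7), PLIN2 (55.0 ± 1.67), CPT1A (48.6 ± 3.45), PNPLA2 (36.7 ± 5.03), PPARD (11.9 ± 0.92), HILPDA (11.5 ± 2.14) and ANGPTL4 (8.58 ± 2.02). ACADVL had passed HADHA and PLIN2 had passed CPT1A in that order of uncorrected FPKM. The log2 difference of ACADVL was 1.02 uncorrected and 0.63 corrected, and that of PLIN2 0.81 and 0.68. HADHA and CPT1A had corrected values of −0.04 each. Whether the order holds with the GC and length trend removed was not tested. The library values of ACADVL overlapped those of PLIN3 and HADHA, HILPDA overlapped PPARD, and ANGPTL4 overlapped HILPDA.

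The 3 protein-coding genes whose pattern over the 6 libraries was nearest to that of PLIN2, by the root mean square difference of centred log2 CPM, were DDX39A, an RNA helicase (0.0672), ACVR1B, an activin receptor (0.0747), and NFIX, a transcription factor (0.0749). Of the other 8 genes, ACADVL (0.205), HILPDA (0.217) and PNPLA2 (0.226) were the nearest, and ANGPTL4 (0.734), whose difference was wider, the farthest. This measure is a description over 6 libraries, on values without the GC and length correction. The log2 fold changes of DDX39A, ACVR1B and NFIX were 0.69, 0.67 and 0.74, with corrected values of 0.29, 0.57 and 0.51. Those of PLIN2 were 0.81 and 0.68.

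Beyond these 9, 7 lists of genes of the pathway held 188 genes, of which 171 were in the table and 147 could be tested. Of these 147, 44 rose (29.9%) and 38 fell (25.9%), against 25.6% and 26.1% of all tested genes, and their median log2 fold change was −0.01, against −0.0042 for all tested genes. In the corrected fit, 34 rose and 34 fell (23.1% each), against 17.3% and 17.8% of all tested genes. The shares of all tested genes in each direction (25.6% higher and 26.1% lower uncorrected, 17.3% and 17.8% corrected) stand behind the counts of every list below.

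Of 24 tested genes for droplet proteins and triglyceride and sterol ester synthesis, 8 rose (33.3%) and 7 fell (29.2%), with a median of −0.09. With the correction 6 rose and 6 fell (25.0% each), and AGPAT2 passed from a called rise (0.31) to a called fall (−0.34). Without exosome library 1, 5 rose. Besides PLIN5 and PLIN4, the rises with the smallest adjusted p were AUP1, a droplet protein (0.69, edgeR adjusted p = 1.03e-05, corrected 0.23), and GPAT3, which starts glycerolipid synthesis at the endoplasmic reticulum (0.63, edgeR adjusted p = 1.63e-05, corrected 0.70). GPAT3 had 51.1 ± 0.0578 CPM with exosomes and 31.2 ± 2.44 CPM in control. Falls included HSD17B11, a dehydrogenase found on droplets (−0.53, edgeR adjusted p = 3.25e-05, corrected −0.43), and GPAM, the mitochondrial enzyme for the same step as GPAT3 (−0.52, corrected −0.20). SOAT1, which makes sterol esters, fell in the uncorrected fit alone (−0.45, corrected −0.08, corrected adjusted p = 0.32). DGAT2, the other enzyme for the step of DGAT1, had 17.8 ± 1.34 CPM with exosomes and 15.0 ± 1.83 CPM in control and did not pass (0.16, edgeR adjusted p = 0.322).

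Of 17 tested genes of lipolysis and the lipoprotein lipase system, 5 rose (29.4%) and 7 fell (41.2%), against 25.6% and 26.1% of all tested genes, with a median of 0.03. With the correction 3 rose (17.6%) and 4 fell (23.5%), against 17.3% and 17.8%. The number that rose was 2 without exosome library 1, and 3 without exosome library 2 or control library 2. Besides MGLL and G0S2, LIPA, the acid lipase of lysosomes, fell (−0.49, edgeR adjusted p = 4.45e-05, corrected −0.37), at 495 ± 30.4 CPM with exosomes and 655 ± 60.1 CPM in control. LMF2, a lipase maturation factor, rose in the uncorrected fit alone (0.55, edgeR adjusted p = 1.13e-04, corrected 0.03). LIPE, the hormone-sensitive lipase, was low, at 3.37 ± 1.02 CPM with exosomes and 1.57 ± 0.446 CPM in control, and its rise (1.01, edgeR adjusted p = 0.00956) did not pass in the corrected fit (0.66, adjusted p = 0.088) or without exosome library 1 (0.76, adjusted p = 0.0944).

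Of 19 tested genes for fatty acid uptake, binding and activation, 6 rose and 6 fell (31.6% each), with a median of 0.03. After correction 4 rose (21.1%) and 6 fell (31.6%, against 17.8% of all tested genes), with a median of −0.11. The synthetases ACSL4 and ACSL3, which join long fatty acids to coenzyme A, fell (−0.63 and −0.52, corrected −0.25 and −0.14), and so did ACOT9, a mitochondrial thioesterase (−0.47, corrected −0.45). ACSL4 was at 407 ± 38.2 CPM with exosomes and 595 ± 64.6 CPM in control (edgeR adjusted p = 6.23e-06). ACSS1, which activates acetate in mitochondria, rose (0.68, edgeR adjusted p = 1.29e-06, corrected 0.61), at 159.8 ± 11.7 CPM with exosomes and 94.4 ± 8.55 CPM in control.

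Of 25 tested genes of the carnitine shuttle and mitochondrial β-oxidation, 10 rose (40.0%) and 2 fell (8.0%), against 25.6% and 26.1% of all tested genes, with a median of 0.05. In the corrected fit 5 rose (20.0%) and 3 fell (12.0%), with a median of 0.12, against 17.3% and 17.8% of all tested genes. Those 3 were ACAA2, ECHS1 (−0.40, adjusted p = 1.08e-04, uncorrected 0.08) and CRAT. CRAT had been called higher in the uncorrected fit (0.24) and was called lower in the corrected one (−0.20, adjusted p = 0.0241). The 10 became 6 without exosome library 1, exosome library 2 or control library 2. Besides CPT1C, the rises included HSD17B10, a hydroxyacyl-CoA dehydrogenase (0.73, edgeR adjusted p = 7.63e-06, corrected 0.22), ACAD9, known mainly for assembling respiratory complex I (0.51, corrected 0.28), and ACADS, the short chain dehydrogenase (0.64, but 0.07 and adjusted p = 0.709 in the corrected fit). The 2 falls were ACAA2, a thiolase (−0.33, edgeR adjusted p = 0.00625, corrected −0.26), and ACADSB, for short branched chains (−0.24, edgeR adjusted p = 0.0203). ACAA2 did not pass without control library 1 (adjusted p = 0.0595). ACADSB did not pass in the corrected fit (0.12, adjusted p = 0.172), and its adjusted p was 0.0503 to 0.0734 without exosome library 1 or 2 or any 1 of the control libraries.

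Of 20 tested peroxisomal genes, 4 rose (20.0%) and 5 fell (25.0%), with a median of −0.12. Corrected, 5 rose (25.0%) and 7 fell (35.0%), against 17.3% and 17.8% of all tested genes. ACOX2, an oxidase for branched chains, rose (0.67, edgeR adjusted p = 4.38e-05, corrected 0.40), as did ACOT8, a peroxisomal thioesterase (0.38, corrected 0.24), and ABCD4 (0.40, corrected 0.25), a relative of the peroxisomal importers that is known for handling cobalamin in lysosomes. SCP2, a lipid carrier with a thiolase form, fell (−0.42, edgeR adjusted p = 2.46e-04, corrected −0.20). The importer ABCD3 fell in the uncorrected fit alone (−0.42, corrected −0.08, corrected adjusted p = 0.44).

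Of 18 tested genes of the PPAR system, 4 rose (22.2%) and 6 fell (33.3%), with a median of −0.06. After correction 3 rose (16.7%) and 6 fell (33.3%), against 17.3% and 17.8% of all tested genes. The number that rose was 1 or 2 when any exosome library or control library 2 was left out. Besides PPARA, the falls included FADS2, a desaturase (−0.49, edgeR adjusted p = 4.34e-05, corrected −0.73), the co-activator NCOA2 (−0.49, corrected −0.19) and UCP2, a mitochondrial carrier that PPARs induce in several tissues (−0.45, edgeR adjusted p = 1.5e-04, corrected −0.86). NRIP1, a co-repressor, rose (0.34, edgeR adjusted p = 0.00863, corrected 0.75, 0.22 and adjusted p = 0.0503 without exosome library 3). PPRC1, a co-activator of the PGC-1 family, rose by 0.24 (edgeR adjusted p = 0.0142) but did not pass in the corrected fit (0.06) or without exosome library 2 or control library 2 (adjusted p = 0.0685 and 0.0911). UCP3, close to 1 CPM, had 1.09 ± 0.0546 CPM with exosomes and 0.402 ± 0.196 CPM in control. It passed narrowly (1.32, edgeR adjusted p = 0.0276), not in the corrected fit (adjusted p = 0.0863), and not without any exosome library or without control library 1 or 2 (adjusted p = 0.0514 to 0.113).

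Of 25 tested genes induced by low oxygen or encoding its factors, 8 rose (32.0%) and 5 fell (20.0%), with a median of 0.03. In the corrected fit 8 rose (32.0%, against 17.3% of all tested genes) and 3 fell (12.0%), with a median of 0.10. CA9, a carbonic anhydrase, was at 51.7, 59.1 and 48.5 CPM with exosomes, against 22.3, 24.1 and 22.9 CPM in control (1.12 ± 0.10, edgeR adjusted p = 2.84e-08, corrected 0.64). VEGFA, the angiogenic growth factor, was at 149, 149.8 and 121 CPM with exosomes, against 62.7, 72.6 and 72.4 CPM in control (0.93 ± 0.089, edgeR adjusted p = 5.48e-08, corrected 0.97). PFKFB3 and PFKFB4, which raise glycolysis, rose as well (0.53 and 0.57, corrected 0.35 and 0.31). HIF1A, the oxygen-regulated factor itself, which is controlled mainly at the protein level, fell in the uncorrected fit (−0.41, edgeR adjusted p = 2.61e-04), but its corrected value was −0.06 (adjusted p = 0.44). P4HA2, a collagen prolyl hydroxylase, fell (−0.30, edgeR adjusted p = 0.0105, corrected −0.35), though not without exosome library 1 (adjusted p = 0.0754). LDHA, the lactate dehydrogenase of glycolysis, had 2156 ± 46.2 CPM with exosomes and 2350 ± 96.8 CPM in control. Its fall (−0.21, edgeR adjusted p = 0.0239) did not pass in the corrected fit (adjusted p = 0.0573) or without exosome library 1 or 2 or control library 1 or 2 (adjusted p = 0.0509 to 0.115). The 5 falls of the list became 1 to 3 without those same libraries.

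**Figure D4:**
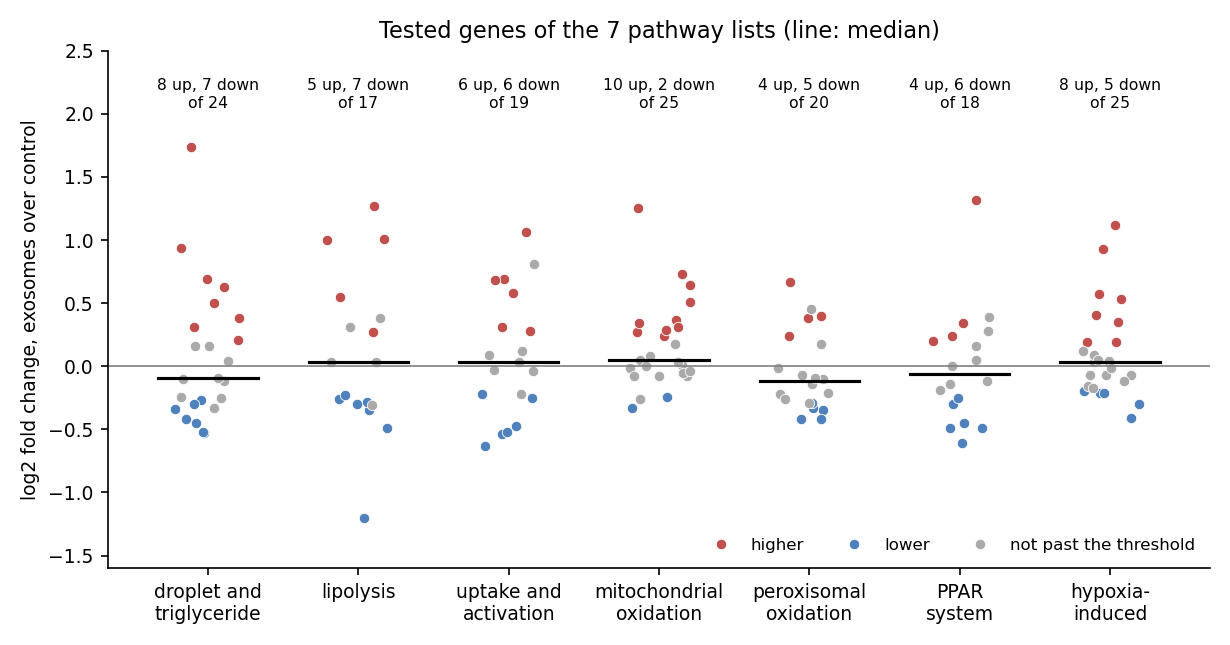
Log2 fold change of exosome over control for every tested gene of the 7 lists, 1 point per gene and a black line at the median of the list, with the numbers past an adjusted p of 0.05 (up for higher, down for lower) above each. Red points were higher, blue lower and grey not past the threshold. The medians lie between −0.12 and 0.05, and 10 of 25 genes of mitochondrial oxidation were higher against 2 lower.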

How the data were processed

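Trizol extraction and a NEBNext Ultra kit were used for the 3 exosome and 3 control samples, per the labels' protocols. The submitters' processing notes name STAR and GRCh38 (hg38). How reads were counted, by which annotation and whether by strand, is not stated. Several genes named from the lists overlap other annotated genes, so their reads may not be separated either. On their own strand, PLIN5 overlaps AC011498.4 by 6798 bases, FADS2 overlaps FEN1 by 4265 bases and ACAA2 overlaps AC090227.1 by 18168 bases. On the other strand, G0S2 overlaps AL031316.1 by 969 bases and LIPE overlaps LIPE-AS1 by 25920 bases. LIPA overlaps several IFIT genes on the other strand, IFIT2 by 25583 bases. These are examples, and other named genes have overlaps too. Per the file headers, the authors' table holds whole read counts per gene, a normalised signal (counts divided by a size factor), FPKM values, and log2 fold changes and p-values of the authors' own comparison. Counts were used for every fit and FPKM for levels per length. FPKM values, and the shares and ratios made from them, were used without the GC and length correction. The deposited signal and p-value columns were not used, and the deposited log2 fold changes served as 1 alternative. Columns were matched to samples by title.

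The count model was edgeR's (version 4.0.16 under R 4.3.3, with filterByExpr, TMM, quasi-likelihood test, Benjamini-Hochberg over 12449 genes, threshold 0.05). The standard error was derived from the test, as the absolute log2 fold change divided by the square root of the quasi-likelihood F statistic. CPM values are scaled to library totals, without TMM factors. In the corrected fit, each library's loess trend (span 0.3) on transcript GC content and length entered as an offset. Both came from GENCODE 29, which matched 15758 of 15761 rows; positions are counted from 1. At the lowest total, 11346639 counts, 1 CPM is about 11 reads, and errors cover these libraries only.

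The genes, the 7 lists and all tests were chosen with earlier results of these data known. The lists leave out the 10 genes themselves. Genes named from a list are up to 4 called genes with the smallest adjusted p and up to 3 called against the list's majority, plus HADHB, DGAT2, CPT1B, CPT1C, CPT2, ABHD5, G0S2, PPARA, PPARG and the 3 genes nearest to PLIN2 in pattern (log2 CPM with a prior count of 1). PLIN1, AGPAT2, ECHS1 and CRAT were named after their values were seen and are not among the 49 named genes counted below. Alternatives were RLE factors, library totals only, no filter, a filter of at least 1 CPM in 3 libraries, limma-voom (limma 3.58.1), DESeq2 1.42.0, a threshold of 0.01, a replicate block, the correction with and without the block, and leaving out libraries. The uncorrected edgeR fit was also run on simulated counts in which 200 genes were changed, as many up as down, with no trend on GC content or length. That simulation does not cover the corrected fit, the list counts or changes as broad as those in these data.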

Additional observations from a re-analysis of the deposited data

How the results depend on the processing

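The counts of genes called over the whole table stayed within 1.5 times under every alternative run, and were 2503 to 3234 higher and 2608 to 3375 lower with 1 library left out. Scaling by library totals moved the median log2 fold change of all genes to 0.078. It gave 0.89 for PLIN2, 0.11 for HADHA, 4 lipolysis genes lower, 1 mitochondrial and 1 hypoxia gene lower and 7 PPAR genes higher, ended the calls of ACADSB, P4HA2 and LDHA (adjusted p = 0.12, 0.0584 and 0.158) and made that of CPT2 (0.0381). UCP3 was lost with no filter (0.0522) and with DESeq2 (0.0933). At a threshold of 0.01, 5 droplet, 3 lipolysis, 6 mitochondrial and 1 PPAR gene were higher, and 4 lipolysis, 1 mitochondrial and 1 hypoxia gene lower. DESeq2 called 3 lipolysis genes higher. The GC and length correction gave 0.68 for PLIN2, −0.35 for PLIN3, 0.39 for HILPDA, −0.03 for PNPLA2, 1.39 for ANGPTL4, 0.63 for ACADVL, −0.21 for PPARD, 0.12 for ACADSB and 0.09 for ABHD5, with 3 lipolysis genes higher and 4 lower, 5 mitochondrial genes higher and 3 hypoxia genes lower; the cause of the trend was not tested. Of 45 calls among 49 named genes with a fit, it kept 34 and ended 11, 2 of them with a change of sign, and it made 1.

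With 1 library left out, the ranges were 5 to 8 droplet genes higher, 2 to 5 lipolysis and 6 to 10 mitochondrial genes higher, 0 to 2 mitochondrial genes lower, 1 to 5 PPAR genes higher and 1 to 7 hypoxia genes lower. HADHB ranged from −0.02 to 0.08. Without the libraries numbered 3 in both groups, PLIN3 was 0.13, HILPDA 0.82 and HADHB −0.03. Deviations of same-numbered libraries correlated at 0.0582, 0.097 and 0.199. Exosome libraries 2 and 3 correlated best with the control library of their own number, and exosome library 1 with control library 2 (0.0667). These correlations do not settle whether the sample numbers pair the samples. A replicate block called 3444 genes higher and 3525 lower, left PLIN2 at 0.81 and changed no call among the 49 named genes. The correction with the replicate block gave 0.68 for PLIN2, −0.34 for PLIN3, 0.39 for HILPDA, −0.03 for PNPLA2, 0.62 for ACADVL, −0.04 for HADHA, −0.21 for PPARD, 0.12 for ACADSB and 0.09 for ABHD5. It called 3 lipolysis genes higher and 4 lower and 6 mitochondrial genes higher, and HADHB passed in it (0.14, adjusted p = 0.0391). Single values in groups of 3 were not screened for outliers, and genes under the count filter could not be tested.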
